A study of Homo sapiens with 6 samples.

Results

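In PANC-1 cells carrying an shRNA against STYK1, 34 genes of a table of 995 sat at one identical lowest value in all 3 knockdown libraries and above it in every control library. They are called floor genes here. The rule used the deposited values themselves: the 3 shSTYK1 scores of a gene had to be equal within 1e-09, and each of the 3 control scores had to be higher. The contrast of shSTYK1 with control therefore chose these genes, and their values are a description without a test. Lack of overlap as such was common in this selected table, where 48.1% of the 995 genes were lower in shSTYK1 with no overlap between the groups. The paper reports the same total of genes down or up after STYK1 depletion. The 995 genes thus appear to have been chosen by this same contrast, and the test results below are not independent of that choice.

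PANC-1 is an established line from a human pancreatic ductal carcinoma, and STYK1 is a receptor-like kinase. Poly(A)-selected RNA was sequenced from 3 control and 3 shSTYK1 libraries, given by the methods as biological replicates. Per the methods, shRNAs were delivered in the lentiviral vector pLKO.1-puro, and resistant cells were selected with puromycin, isolated as clones and expanded. The sources used here do not say which STYK1 shRNA the sequenced cells carried, what the control vector was, or how many clones were pooled, so a property of the clone and an effect of the knockdown cannot be told apart. STYK1 itself is not among the 995 genes, so the knockdown could not be checked. Of the duct cell markers, CLDN1 and CA2 are in the table, and no pancreatic endocrine marker is in it, so the labelled cell type could not be checked.

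The deposited values are scores centred and scaled gene by gene, and expression values with 2 decimals were recovered from their digits for 994 genes. The recovered unit is not stated, nor whether it is divided by transcript length, so the comparisons below are of each gene with itself across libraries, and medians over genes describe the table only. Sequencing depth is unknown. Multiplying value + 1 by a constant leaves the scores of a gene as they are and raises its floor, so a floor of 0 rests on taking the smallest solution with no value below 0. With that solution, 33 of the 34 floor genes were at exactly 0 in the shSTYK1 libraries, and GFOD1 was at 0.32. "Listed at 0" is used below in place of absent, since a value of 0 can hide a transcript below the rounding or the depth.

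Many genes are used in a few tissues only, such as neurofilament genes in nerve cells, T cell receptor genes in lymphocytes or digestive enzyme genes in acinar cells of the pancreas. Tumour lines often carry transcripts of such genes at low levels. KRAB zinc finger genes also stand in clusters of close copies along a chromosome. In bulk RNA, fewer cells of a type and less RNA per cell cannot be told apart.

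Of the 34 floor genes, 28 have a symbol and 32 were located in GENCODE 29, which gives 27 of them as protein coding. The others are a T cell receptor constant gene, an antisense gene, a lincRNA, a processed transcript and a TEC entry, which is a transcript awaiting experimental support. ENSG00000291130 and ENSG00000293476 are known here by identifier only. The floor genes lay on 13 autosomes and the X, with 4 each on chromosomes 4, 6 and 8, and 3 each on 9, 12 and 19.

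**Figure D1:**
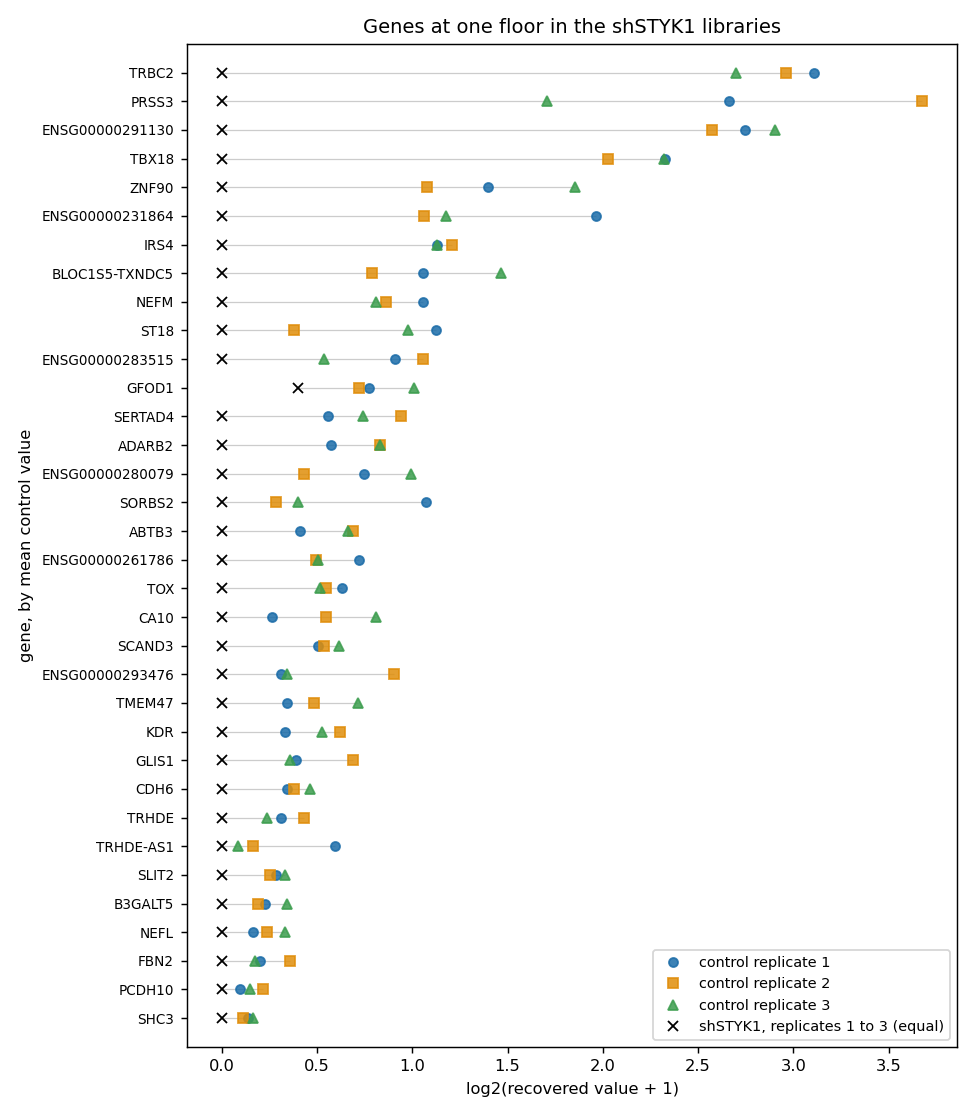
Each line is 1 of the 34 floor genes, in the order of the mean control value, on the log2(recovered value + 1) axis. Coloured points are the 3 control libraries and the cross is the value shared by the 3 shSTYK1 libraries, which is 0 for every gene but GFOD1.

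The promoter windows of 5 floor genes follow, to show how their CpG content differs. They are the 4 genes with the highest control means among those with a RefSeq entry, and FBN2, whose window has the highest ratio of observed to expected CpG. Each runs 5′ to 3′ on the gene's own strand, from 250 bases before to 50 after the RefSeq start, and capitals mark the CG dinucleotides.
PRSS3 promoter, GRCh38.p14 chr9:33795311-33795610, plus strand: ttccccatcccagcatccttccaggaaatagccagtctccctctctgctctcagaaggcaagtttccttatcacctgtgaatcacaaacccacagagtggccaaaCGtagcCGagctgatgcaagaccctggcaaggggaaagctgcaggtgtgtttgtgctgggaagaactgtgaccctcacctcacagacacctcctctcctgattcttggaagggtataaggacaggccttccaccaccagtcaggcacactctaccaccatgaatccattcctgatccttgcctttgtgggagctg
TBX18 promoter, GRCh38.p14 chr6:84764549-84764848, minus strand: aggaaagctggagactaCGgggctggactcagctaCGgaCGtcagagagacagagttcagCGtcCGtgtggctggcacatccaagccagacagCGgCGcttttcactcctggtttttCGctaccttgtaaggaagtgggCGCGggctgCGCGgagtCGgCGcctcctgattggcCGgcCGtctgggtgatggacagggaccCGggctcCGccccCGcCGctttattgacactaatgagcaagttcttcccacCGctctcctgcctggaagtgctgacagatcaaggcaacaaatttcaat
ZNF90 promoter, GRCh38.p14 chr19:20077750-20078049, plus strand: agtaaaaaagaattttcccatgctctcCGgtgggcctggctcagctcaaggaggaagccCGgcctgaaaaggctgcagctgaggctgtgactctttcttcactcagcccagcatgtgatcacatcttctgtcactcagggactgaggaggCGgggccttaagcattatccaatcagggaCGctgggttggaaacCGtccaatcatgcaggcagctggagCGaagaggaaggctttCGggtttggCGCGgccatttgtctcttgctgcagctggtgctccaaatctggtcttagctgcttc
IRS4 promoter, GRCh38.p14 chrX:108736514-108736813, minus strand: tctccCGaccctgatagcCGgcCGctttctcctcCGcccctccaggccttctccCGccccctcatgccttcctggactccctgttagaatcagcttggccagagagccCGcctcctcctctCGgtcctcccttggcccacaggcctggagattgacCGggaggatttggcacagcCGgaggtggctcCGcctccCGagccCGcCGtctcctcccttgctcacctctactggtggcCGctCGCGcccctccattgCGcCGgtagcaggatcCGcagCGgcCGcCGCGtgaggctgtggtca
FBN2 promoter, GRCh38.p14 chr5:128538196-128538495, minus strand: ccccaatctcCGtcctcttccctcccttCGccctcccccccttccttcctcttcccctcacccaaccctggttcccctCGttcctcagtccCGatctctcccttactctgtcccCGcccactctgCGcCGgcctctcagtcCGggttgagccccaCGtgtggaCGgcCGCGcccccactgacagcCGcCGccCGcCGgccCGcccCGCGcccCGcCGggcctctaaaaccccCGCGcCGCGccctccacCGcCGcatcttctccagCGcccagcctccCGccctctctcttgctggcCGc

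Of the genes best known from nerve cells, NEFM and NEFL encode the medium and light subunits of the neurofilament, the intermediate filament of axons. They stand 31.9 kb apart on chromosome 8 on opposite strands. NEFM (chromosome 8, 24913012 to 24919098) had recovered values of 1.08, 0.82 and 0.75 in control replicates 1, 2 and 3 and was listed at 0 in every shSTYK1 library. NEFL (24950955 to 24957110) had 0.12, 0.18 and 0.26 in control and was listed at 0 in shSTYK1. The 2 genes were ordered oppositely among the control libraries: replicate 1 was the highest for NEFM and the lowest for NEFL. PRPH, which encodes the related filament protein peripherin, went the other way, from 0.747 ± 0.228 (SD, n = 3) to 3.46 ± 0.990 (a change of 1.34 on the log2 scale, SE 0.20, limma adjusted p = 0.000365).

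Several other floor genes have known roles in the nervous system, a grouping made after the values were seen. ST18, a zinc finger transcription factor of the MYT family (chromosome 8, 52110839 to 52460959), had 1.18, 0.30 and 0.97 in control. ADARB2, a brain-expressed member of the RNA-editing deaminase family without known editing activity (chromosome 10, 1177318 to 1737476), had 0.49, 0.78 and 0.78. CA10, a carbonic anhydrase-related protein without catalytic activity that binds neurexins (chromosome 17, 51630313 to 52160017), had 0.20, 0.46 and 0.75. In ADARB2 replicate 1 was the lowest and the other 2 were equal, while the control values of ST18 and CA10 differed several-fold between libraries and all 3 genes were listed at 0 in shSTYK1. SHC3, the neuronal Shc adaptor, and PCDH10, a protocadherin of neural circuits, were the floor genes nearest to 0 in control. SHC3 (chromosome 9) had 0.10, 0.08 and 0.12 in control. PCDH10 (chromosome 4) had 0.07, 0.16 and 0.11. For these 2 genes no control value was above 0.16, and values were recovered to 2 decimals.

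The table held 13 of the 148 genes of a list of neuron and glia markers, and NEFM, NEFL and PCDH10 were the floor genes among them. Of the other 10, 4 could be tested, and 3 were lower and 0 higher in shSTYK1, against 44.5% lower and 51.2% higher among all 740 genes tested. PCDH7 fell from 8.31 ± 0.927 to 0.653 ± 0.197 (a change of -2.50 on the log2 scale, limma adjusted p = 6.17e-06). GAD1, which makes the transmitter GABA, fell from 9.76 ± 2.55 to 3.80 ± 0.208 (a change of -1.14 on the log2 scale, limma adjusted p = 0.000442). GAD1 was still at 3.65 to 4.04 in the shSTYK1 libraries, well off the floor.

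Of the genes of mesenchyme and matrix, TBX18, a T-box transcription factor of the epicardium, ureter and sinus node (chromosome 6, 84687351 to 84764519, minus strand), had 4.01, 3.07 and 4.00 in control and was listed at 0 in all 3 shSTYK1 libraries. Its lowest control value was well above the floor, with a coefficient of variation (CV, the SD over the mean of the 3 control libraries) of 0.146. FBN2, which encodes the microfibril protein fibrillin-2 of developing tissue (chromosome 5, 128257909 to 128659185), had 0.15, 0.28 and 0.13. The fibroblast and mesenchyme list had 14 of 76 genes in the table, and TBX18 and FBN2 were its floor genes. Of the other 12, all tested, 9 were lower and 3 higher in shSTYK1, beside 44.5% lower and 51.2% higher among all genes tested. COL1A1 fell from 30.4 ± 10.5 to 3.26 ± 0.414 (a change of -2.83 on the log2 scale, limma adjusted p = 2.61e-05), and LOXL1, which crosslinks elastin, rose from 0.73 ± 0.149 to 5.60 ± 2.94 (a change of 1.85 on the log2 scale, limma adjusted p = 0.000394). Members of the list thus moved in both directions, and its floor genes are lower by the rule.

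Blood and vessel genes gave 3 floor genes. TRBC2, a constant region of the T cell receptor beta chain, normally expressed in T lymphocytes (chromosome 7, 142801041 to 142802748), had 7.61, 6.80 and 5.50 in control and was listed at 0 in shSTYK1. TOX, an HMG-box factor known from T cell development (chromosome 8, 58805418 to 59119208), had 0.55, 0.46 and 0.43. Neither gene was in the list of blood and immune markers, of whose 169 genes 6 were in the table, with 2 of 4 tested lower and 2 higher. The table held no other T cell receptor constant gene. KDR, the main VEGF receptor of endothelium (chromosome 4, 55078259 to 55125595), had 0.26, 0.54 and 0.44. Of 54 endothelial markers, 3 were in the table, and the other 2 were tested and lower. EFNB2 fell from 3.66 ± 0.18 to 0.583 ± 0.11 (a change of -1.56 on the log2 scale, limma adjusted p = 2.11e-05). SOX18 fell from 1.97 ± 0.937 to 0.733 ± 0.245 (a change of -0.74 on the log2 scale, limma adjusted p = 0.0165). Among all 740 genes tested, 44.5% were lower and 51.2% higher. With 2 and 4 genes tested, the vessel and blood lists are too small to be set apart from these shares.

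Among pancreatic and epithelial genes were PRSS3 and B3GALT5. PRSS3 encodes mesotrypsin, a trypsin that resists common trypsin inhibitors, made by pancreatic acinar cells (chromosome 9, 33750466 to 33799231, plus strand). Its recovered values were 5.34, 11.79 and 2.26 in the control libraries, the widest absolute range of any floor gene, and 0 in all shSTYK1 libraries. Replicate 2 was 5.22 times replicate 3 (CV 0.752). Of the 29 acinar markers the table held PRSS3 and NR5A2, a nuclear receptor below the filter of the test, whose values were 0.53, 0.54 and 0.87 in control and 0.15, 0.08 and 0.21 in shSTYK1. B3GALT5, a galactosyltransferase that builds type 1 sugar chains in gut and pancreatic epithelium (chromosome 21, 39556442 to 39673137), had 0.17, 0.14 and 0.27. Its antisense neighbour B3GALT5-AS1 lay within the gene and missed the rule by 1 library, with 0.31, 0.36 and 0.41 in control and 0.02, 0 and 0 in shSTYK1.

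Of the adhesion, guidance and signalling genes, SLIT2, a secreted guidance cue for ROBO receptors (chromosome 4, 20253260 to 20620561), had 0.22, 0.19 and 0.26. CDH6, a cadherin of the developing kidney (chromosome 5, 31193750 to 31329146), had 0.27, 0.30 and 0.38. These genes differed little between control libraries (CV 0.157 and 0.180), and both were listed at 0 in shSTYK1. TMEM47, a small membrane protein of cell junctions (chromosome X, 34627064 to 34657288), had 0.27, 0.40 and 0.64. IRS4, an adaptor of insulin and IGF signalling encoded by a single-exon gene (chromosome X, 108732482 to 108736409), had 1.19, 1.31 and 1.19 in control. IRS4 had the smallest spread of all floor genes (CV 0.0563). SORBS2, an adaptor that links the actin cytoskeleton to adhesion sites (chromosome 4, 185585444 to 185956652), had 1.10, 0.22 and 0.32, so its mean rested largely on replicate 1.

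The cadherin family had 11 genes in the table, CDH6 and PCDH10 among them. Of the 7 other members tested, 3 were lower and 4 higher, or 3 and 3 once libraries were rescaled by the median of ratios. CDH2, N-cadherin, fell from 23.6 ± 1.07 to 2.87 ± 0.254 (a change of -2.67 on the log2 scale, limma adjusted p = 2.89e-06), while CDH3, P-cadherin, rose from 1.61 ± 0.725 to 4.94 ± 0.618 (a change of 1.22 on the log2 scale, limma adjusted p = 0.000818). The extracellular matrix family, with FBN2 as its floor gene, had 16 lower and 7 higher of 23 tested. Axon guidance and adhesion genes, with SLIT2, had 12 lower and 6 higher of 18, and 3 higher after rescaling. Developmental transcription factors, with TBX18, had 17 lower and 6 higher of 23, and cytokine, growth factor and receptor genes, with KDR, had 15 lower and 6 higher of 24. Cytoskeletal genes, with NEFM and NEFL, had 13 lower and 8 higher of 22. These counts are to be read beside all 740 genes tested, of which 44.5% were lower and 51.2% higher (335 lower and 318 higher of 730 after rescaling). Metabolic enzymes, with CA10 and B3GALT5, had 15 lower and 12 higher of 29, and proteases and their inhibitors, with PRSS3, had 5 lower and 4 higher of 10. Long noncoding RNAs named by symbol, with TRHDE-AS1, had 14 lower and 21 higher of 36, or 16 higher after rescaling. No floor gene was among the 20 solute carriers, 13 ion channels, 5 pumps and ABC transporters or 14 G protein-coupled receptors of the table. Nor was any among its 11 Wnt pathway genes or 24 small GTPases and regulators. With 34 floor genes among 995, classes of this size would hold few or none, so their lack is not a trait of the set. Rescaling shifted the log2 differences of the tested genes by a median of -0.29, and its factors came from this table of selected genes alone. Among the lists that hold a floor gene and have calls, it left the direction with more calls as it was except in the cadherins, which became even, and the zinc fingers.

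Among the zinc finger and related DNA-binding genes, ZNF90, a KRAB zinc finger gene (chromosome 19, 20077994 to 20127076), had 1.63, 1.11 and 2.61 in control. ENSG00000280079, a TEC entry of unknown function 93.5 kb downstream (20220597 to 20222186, minus strand), had 0.68, 0.35 and 0.99. Both were at 0 in every shSTYK1 library, and both had the order replicate 3, replicate 1, replicate 2 in control. GLIS1, a Krüppel-like zinc finger factor (chromosome 1, 53506237 to 53738106), had 0.31, 0.61 and 0.28. SCAND3, a SCAN domain gene derived from a transposase (chromosome 6, 28570535 to 28616212), had 0.42, 0.45 and 0.53 (CV 0.122). The zinc finger family as a whole was mixed: of the 18 other genes tested, 7 were lower and 8 higher, or 6 and 3 after rescaling. ZNF185 fell from 7.13 ± 0.355 to 1.37 ± 0.25 (a change of -1.78 on the log2 scale, limma adjusted p = 1.77e-05), and ZNF148 rose from 11.4 ± 1.51 to 23.4 ± 2.66 (a change of 0.98 on the log2 scale, limma adjusted p = 0.000407).

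The remaining floor genes were of other kinds. ENSG00000291130, which GENCODE 29 does not hold, had 5.72, 4.95 and 6.49 in control. ENSG00000293476 had 0.24, 0.87 and 0.27, with replicate 2 standing apart. SERTAD4, a SERTA domain gene (chromosome 1), had 0.47, 0.92 and 0.67, and ABTB3, an ankyrin and BTB domain gene that GENCODE 29 lists as BTBD11 (chromosome 12), had 0.33, 0.61 and 0.58. The lincRNA ENSG00000261786 (chromosome 3, 44117299 to 44122365) had 0.65, 0.41 and 0.42. All of these were listed at 0 in shSTYK1, below every control library by the rule. TRHDE, an ectoenzyme that breaks down thyrotropin-releasing hormone (chromosome 12, 72087266 to 72670757), had 0.24, 0.35 and 0.18. TRHDE-AS1 lies inside it on the opposite strand and had 0.51, 0.12 and 0.06, the largest CV of the floor genes at 1.06. The control libraries did not rank the pair alike: replicate 1 was highest for TRHDE-AS1 and replicate 2 for TRHDE. Without strand information in the sources used here, reads from the stretch that the pair shares cannot be told apart. That stretch is small: 7.91% of the 100-base windows of TRHDE-AS1 transcripts occur in TRHDE on either strand. For TRHDE, 5.88% occur in TRHDE-AS1 or TPH2.

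GFOD1, an oxidoreductase-domain gene (chromosome 6, 13357830 to 13487662, minus strand), was the floor gene not at 0. It had 0.71, 0.65 and 1.01 in control and 0.32 in each shSTYK1 library. The smallest solution with no value below 0 gave this floor, and the next multiples of it would put the floor at 0.76 or 1.2. For 32 of the 34 genes no other set of values with value + 1 up to 40 gave the scores, and for NEFL and SHC3 there was 1. That search left multiples of the same solution aside, for GFOD1 as for the other genes.

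The pattern was counted in both directions. Of the 499 genes with a lower mean score in shSTYK1, 34 (6.81%) were at one floor in all knockdown libraries. Of the 496 with a higher mean score, 2 (0.403%) were at one floor in all control libraries. These were SMG1P3, a pseudogene of the kinase gene SMG1, with 1.70, 0.86 and 1.16 in shSTYK1, and MAGEC3, a cancer-testis antigen gene of the X chromosome, with 0.60, 0.43 and 0.89, both listed at 0 in every control library. Genes higher in shSTYK1 with no overlap between the groups made up 45.5% of the table. The limma test called 329 of 740 genes (44.5%) lower. Only 7 of the 34 floor genes passed the filter of that test, at least 1 in at least 3 libraries, and they passed through their control values alone, so no count over them is given.

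Values of 0 were more frequent in every knockdown library than in any control library. The 3 shSTYK1 libraries had 62, 62 and 65 genes at 0, and the control libraries 7, 12 and 14. In shSTYK1, 33 genes were at 0 in all 3 libraries, 27 in 2 and 36 in 1, whereas in control 2 were at 0 in all 3, 5 in 2 and 17 in 1. All 33 genes at 0 in the 3 shSTYK1 libraries were floor genes.

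**Figure D2:**
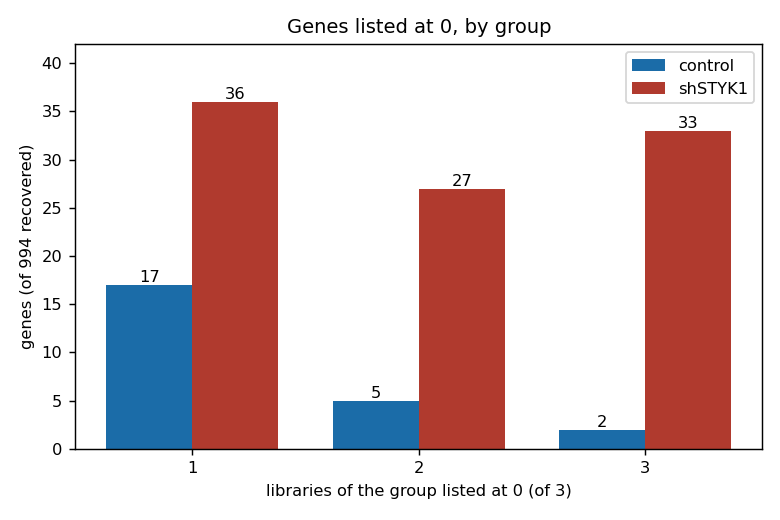
Bars give the number of genes, of 994 recovered, listed at 0 in exactly 1, 2 or 3 libraries of the control (blue) or shSTYK1 (red) group. In shSTYK1 the class of 3 libraries, with 33 genes, is close to the class of 1 library, with 36, while in control the counts drop from 17 to 2.

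Just outside the rule, another 15 genes had at least 1 shSTYK1 library at 0, no 2 shSTYK1 values more than 0.02 apart and no overlap with control. COL4A5, a chain of basement membrane collagen, had 1.29, 1.47 and 2.10 in control and 0.01, 0 and 0.01 in shSTYK1. GPC6, a glypican that carries heparan sulphate, had 1.11, 1.37 and 1.32 against 0.02, 0 and 0. SLC6A15, an amino acid transporter of neurons, had 0.68, 0.69 and 1.00 against 0, 0.02 and 0. These genes missed the rule by 1 or 2 hundredths in 1 or 2 libraries. Just inside it, SHC3 and PCDH10 entered with control means of 0.10 and 0.113. The others outside were ZNF486, PTPN13, B3GALT5-AS1, CLVS2, GLI3, CDK14, HMCN1, PDE7B, BMPR1B, ENSG00000285904, COL4A6 and ZFHX4. With the floor taken as a range of 0.02 in place of equality, the count of floor genes rose from 34 to 62.

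The floor genes had control means from 0.10 (SHC3) to 6.64 (TRBC2) with a median of 0.50, and 8 of the 34 were at 1 or above. Their CV had a median of 0.348, with quartiles of 0.198 and 0.452 and a range of 0.0563 (IRS4) to 1.06 (TRHDE-AS1). The highest control library was a median of 2.02 times the lowest. In 9 genes this ratio was under 1.5 and in 6 it was over 3.

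The 6 tightest floor genes were IRS4, SCAND3, TOX, ENSG00000291130, TBX18 and SLIT2, with CVs of 0.0563, 0.122, 0.130, 0.135, 0.146 and 0.157. The 6 loosest were TRHDE-AS1, SORBS2, ENSG00000293476, PRSS3, CA10 and ENSG00000231864, with CVs of 1.06, 0.881, 0.773, 0.752, 0.585 and 0.571. Tight and loose genes occurred at like levels, since PRSS3 and TBX18 both stood above 2 in every control library. No one control library led: replicate 1 was highest in 9 genes, replicate 2 in 11 and replicate 3 in 13, with a tie in 1. In the whole table replicate 2 was highest in 466 of 994 genes.

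The other 465 genes lower in shSTYK1 had a median control mean of 2.65 and a median CV of 0.205. Set side by side within levels, the median CV was 0.352 in 17 floor genes and 0.30 in 53 other lower genes with control means under 0.5. It was 0.328 against 0.236 for means of 0.5 to 1 (9 and 53 genes), and 0.294 against 0.189 for means of 1 and above (8 and 359 genes). The floor genes were thus at the low end of the table, where the last decimal weighs more, and the medians differed least there. Whether the gap exceeds the spread between genes was not tested.

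**Figure D3:**
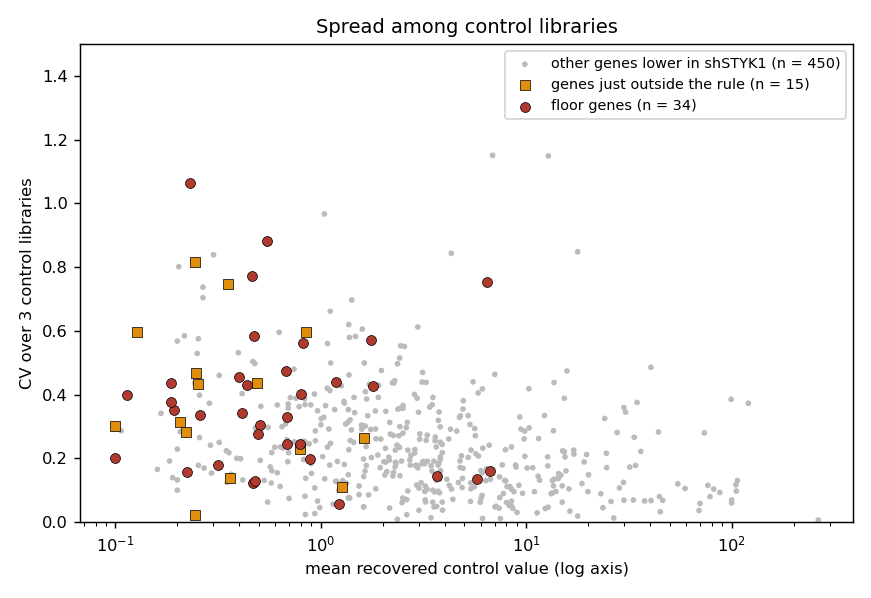
Each point is a gene lower in shSTYK1, with its mean recovered control value on a log axis and its CV over the 3 control libraries. Red points are the 34 floor genes, orange squares the 15 genes just outside the rule and grey points the other 450; floor genes sit mostly below a mean of 1 and reach from a CV of 0.0563 to 1.06.

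Positions along the chromosomes were not used by the rule. Within 500 kb of 13 of the 32 located floor genes lay another gene of the table, and counted once each, the neighbours that were not floor genes were 12 lower and 2 higher in shSTYK1. The set of neighbours was drawn up with values known. In the table as a whole, 485 of 965 located genes (50.3%) were lower. The 12 lower neighbours are not separate cases, since 5 of them are ZNF genes of the same stretch around ZNF90. COL4A5 and COL4A6, near IRS4, also stand side by side. No share is given here for neighbours of the other genes lower in shSTYK1. The counts of 12 and 2 therefore cannot be read as a trait of floor genes. Annotation holds 309 other protein-coding genes within 500 kb of a floor gene, of which 12 (3.88%) were in the table and 11 of these were lower. The table holds 846 of all 19951 annotated protein-coding genes (4.24%), close to the share near the floor genes.

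The stretch with the most table genes was on chromosome 19 around ZNF90. GENCODE 29 places 9 other ZNF genes within 500 kb of it, and 5 of them were in the table, all lower. ZNF486, 20.1 kb from ENSG00000280079, had 0.77, 0.38 and 1.38 in control and 0, 0 and 0.02 in shSTYK1. ZNF682, 38.5 kb from ZNF90, had 0.88, 1.13 and 0.49 against 0.05, 0 and 0.01. ZNF737 had 0.86, 0.67 and 0.56 against 0.12, 0 and 0.02. For each of these genes every shSTYK1 library was below every control library, as for 48.1% of the 995 genes of the table. ZNF626 had 0.81, 0.63 and 1.05 against 0.01, 0.07 and 0.08, and ZNF253 had 0.17, 0.14 and 0.59 against 0.07, 0 and 0. Of the 100-base windows of ZNF90 transcripts, 14.1% occur in transcripts of other genes. By number of shared windows, AC011447.1, AC011447.3 and AC006539.1 came first, pseudogene or antisense entries that overlap ZNF90 itself. ZNF486 came last and was the only ZNF gene among them, so this share is not a measure of sharing within the family.

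On the X chromosome, IRS4 lay 34.9 kb from COL4A5 and 293 kb from COL4A6, 2 collagen IV genes that share a head-to-head promoter region. COL4A5, given above as just outside the rule, was at 0.01, 0 and 0.01 in shSTYK1. COL4A6 had 0.16, 0.18 and 0.04 in control and 0, 0 and 0.02 in shSTYK1. All 3 genes were at or within 0.02 of 0 in every shSTYK1 library. On chromosome 7, EPHB6, an ephrin receptor without kinase activity 52.3 kb from TRBC2, fell from 9.77, 13.59 and 14.73 in control to 0.06, 0.33 and 0.74 (a change of -3.33 on the log2 scale, limma adjusted p = 1.16e-05). On chromosome 6, DSP, the desmosomal plaque protein desmoplakin, 295 kb from BLOC1S5-TXNDC5, had 12.43, 13.44 and 12.40 against 0.04, 0.13 and 0.13 (a change of -3.64 on the log2 scale, limma adjusted p = 4.21e-07). NRARP, a Notch feedback regulator near ENSG00000231864 on chromosome 9, and TCEANC2 near GLIS1 on chromosome 1 were lower too, with log2 fold changes of -1.22 and -0.88 (adjusted p = 0.000148 and 0.000261 from limma). Higher neighbours were the water channel gene AQP3, 303 kb from PRSS3, and the noncoding HULC, 371 kb from BLOC1S5-TXNDC5. Their log2 fold changes of 0.60 and 0.73 (adjusted p = 0.00457 and 0.00635 from limma) became 0.33 and 0.44 after rescaling (adjusted p = 0.0703 and 0.0785). Rescaling shifted all tested genes by a median of -0.29, so it shrank higher genes and enlarged lower ones. EPHB6, for example, went to -3.51 (limma adjusted p = 2.21e-06). The rescaled values therefore do not set the higher neighbours aside.

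**Figure D4:**
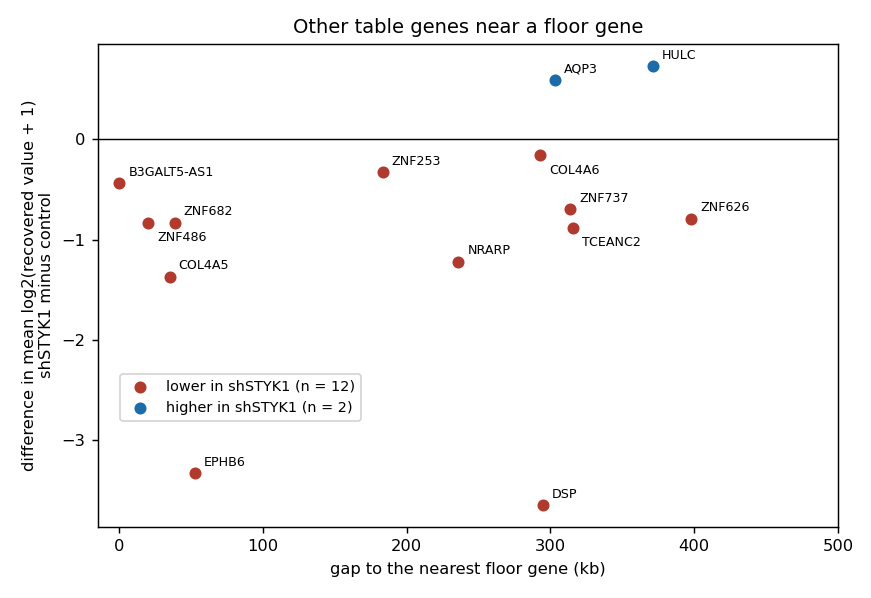
Points are the 14 table genes, floor genes left out, within 500 kb of a floor gene, with the gap to the nearest floor gene in kb and the shSTYK1 minus control difference in mean log2(recovered value + 1). The 12 red points are lower and the 2 blue points, AQP3 and HULC, higher in shSTYK1.

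Shared sequence touches some of the floor values. BLOC1S5-TXNDC5, a read-through transcript of 2 genes (chromosome 6, 7881522 to 8064364), had 1.08, 0.73 and 1.76 in control and was listed at 0 in shSTYK1, and 96.7% of its 100-base windows also occur in transcripts of TXNDC5, BLOC1S5 or another read-through. ENSG00000231864, antisense to SAPCD2 (chromosome 9, 137063535 to 137064581), had 2.90, 1.09 and 1.26 and shared 85.2% with it. ENSG00000283515, a read-through across ZNF544, ZNF8 and ERVK3-1 (chromosome 19, 58228914 to 58315183), had 0.88, 1.08 and 0.45 and shared 68.9%. For these 3 genes, which are uncertain, a change in how reads were assigned and a change in the transcript cannot be told apart. NEFM shared 35.1% with an antisense gene across it, and TRBC2 shared 11.2%, with its paralog TRBC1. In 13 of the 32 genes with transcripts no 100-base window was shared, among them PRSS3, TBX18, KDR, SLIT2 and FBN2, and in 19 the share was under 5%.

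RefSeq promoter windows matched 20 of the 34 floor genes by symbol. The ratio of observed to expected CpG in these 300 bases had a median of 0.793, from 0.0967 for PRSS3 to 1.00 for FBN2. It reached 0.6, a usual limit for CpG island sequence, in 16 of 20 (80.0%), against 69.3% of 339 other lower genes, 68.3% of the 690 table genes matched and 49.0% of 27305 RefSeq promoters. Of the printed windows, that of PRSS3 holds 2 CG dinucleotides and that of FBN2 holds 30, while over the 20 windows the most, 45, are in that of TMEM47. The RefSeq start lies over 10 kb inside the GENCODE gene for 4 of the 20, PRSS3, FBN2, B3GALT5 and TRHDE. ZNF90 (0.398), SORBS2 (0.483) and SHC3 (0.446) were the other floor genes below 0.6, and the list of 16 above it includes KDR, SLIT2, TBX18 and IRS4.

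Motifs were searched by exact letters on both strands. TATAAA, the TATA box, was in 0 of the 20 windows, against 12% of all RefSeq promoters and 8.55% of those of the table, a difference of few windows in a set of 20. GGGCGG, the GC box, was in 14 (70.0%), against 44.6% of all and 63.2% of the table, and the CCAAT box in 9 (45%), against 35.7% and 35.1%. CTTTGAT, the core bound by TCF and LEF factors, was in 1 (5.0%), that of SHC3, against 2.64% of all. A match is a run of letters only.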

How the data were processed

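RNA-Seq of PANC-1 cells comprised 6 libraries, 3 from control and 3 from shSTYK1 cells, and groups were taken from the sample titles. The authors deposited scores for 995 selected genes, centred to 0 and scaled to an SD of 1 within each gene, to 12 significant digits. This number equals the total of down-regulated and up-regulated genes that the paper gives for STYK1 depletion. The limma calls and adjusted p-values therefore describe genes that appear to have been preselected for the contrast tested. The submitters' processing notes name RSEM, DESeq2 and GRCh38, without roles or versions. The design had assumed counts or normalized values. Values were therefore recovered from the scores by searching whole numbers for a set of 6 values, each with 2 decimals and value + 1 up to 2000, whose logarithms of value + 1 reproduce a gene's scores. The search used numpy 2.4.6, numba 0.67.0 and pandas 2.3.3 under Python 3.11.15. It solved 994 genes, with scores recomputed to within 5e-12. Tested on simulated data, it recovered 58 of 60 genes with a floor and 120 of 120 others exactly. It solved 0 of 10 whose values had not been rounded, but over a smaller range of values than was searched for the data. Those 10 had no equal values among their 6 libraries, as floor genes do. False solutions for floor genes at the full range were therefore not tested.

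Floor genes were found by the rule on the deposited scores. For the other genes, limma 3.58.1 (R 4.3.3; lmFit, eBayes, two-sided) was fitted to log2(value + 1), a scale that understates the change of low genes. A gene entered with a value of 1 or more in 3 or more libraries, which gave 740 genes, and p-values were adjusted over all of them by Benjamini-Hochberg at 0.05. In a simulation of shSTYK1 against control over 740 genes, 177 of 200 genes changed by a log2 value of 1 were called, with 4 false calls among 540. Depth is unknown, so no counting interval was computed. Positions and transcripts come from GENCODE 29 (GRCh38), which located 965 genes, and promoter windows from RefSeq (GRCh38.p14). Expected CpG is the product of the C and G counts over the window length.

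The floor genes and the gene lists were chosen with earlier results of these data known. Values in every library are given for the 12 floor genes with the highest control mean, any with a floor above 0, up to 4 per list, and the 6 smallest and 6 largest CVs, and the remaining floor genes were added. Other genes named are those just outside the rule, the genes at one floor in control, neighbours within 500 kb (a set added after values were seen), and up to 3 per direction of a list that holds a floor gene. Lists with no floor gene gave these counts in the limma test: muscle 3 lower and 0 higher of 3 tested, stratified epithelium 2 and 1 of 3, simple epithelium 1 and 3 of 4, duct 1 and 1 of 2, germ line and cancer-testis 4 and 1 of 5, solute carriers 4 and 12 of 17, pumps 4 and 1 of 5, ion channels 4 and 4 of 8, G protein-coupled receptors 6 and 3 of 9, Wnt genes 4 and 3 of 7, and small GTPases and regulators 9 and 10 of 21. These counts stand beside 44.5% lower and 51.2% higher among all 740 genes tested. Alternatives were other floor rules, pseudocounts, filters, scalings, a replicate block and each library left out. Plots were drawn with matplotlib 3.10.9.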

Additional observations from a re-analysis of the deposited data

How the results depend on the processing

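The count of 34 floor genes was the same with a tolerance of 1e-06 and was 33 with a floor of exactly 0. It moved to 62 when shSTYK1 values could differ by 0.02, and the mirror rule on control libraries gave 2. Leaving out a library only loosens the rule, so the 34 genes had to remain whatever the data. Leaving out a control library added none. Leaving out an shSTYK1 library, which leaves 2 values to be equal, gave 48 to 55, the most without shSTYK1 replicate 2. The median control mean of 0.50 ranged from 0.513 to 0.583 with 1 control library left out, became 0.549 with libraries rescaled to a median ratio, and was 0.883 in the 17 genes with a mean of at least 0.5. The median CV of 0.348 ranged from 0.259 to 0.279 with 1 control library left out, which leaves an SD of 2 values, was 0.318 after rescaling and was 0.328 in the 17 genes with a mean of at least 0.5.

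The limma counts of 329 lower and 379 higher genes became 130 and 194 with a filter of at least 5, which leaves 327 genes to test, and 460 and 455 with no filter over 994 genes. Rescaling gave 335 lower and 318 higher, and leaving out each library gave 324 to 328 lower and 365 to 378 higher. A pseudocount of 0.1 gave 327 and 375, and the deposited scores of all genes 484 and 465. Replicate numbers did not pair the libraries: deviations of same-numbered control and shSTYK1 libraries correlated at -0.22, 0.19 and 0.048. With the replicate block, 329 genes were lower and 385 higher. Depth is unknown, so a value of 0 cannot be set against a detection limit.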

Other observations

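Some genes came close to the floor without reaching it. Those named here were chosen after their values were seen. In shSTYK1, 27 genes were listed at 0 in 2 of 3 libraries and 36 in 1 of 3. PDE7B, a cAMP phosphodiesterase, had 0.25, 0.24 and 0.24 in control and 0, 0.02 and 0 in shSTYK1, the smallest control CV of the 15 genes just outside the rule at 0.0237. HMCN1, the matrix protein hemicentin, had 0.46, 0.07 and 0.20 against 0, 0.01 and 0, the largest at 0.816. BMPR1B, a BMP receptor, had 0.15, 0.24 and 0.27 against 0, 0.01 and 0. Within these 15 genes, control replicate 3 was the highest in 10.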
